A study of Mus musculus with 10 samples.

Results

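Between postnatal day 2 (P2) and postnatal day 5 (P5), new stretches of accessible chromatin were called in the mouse cochlea, and those still called at postnatal day 8 (P8) are described here. Regions were chosen by the peak calls themselves: one was taken when it held a peak of the P5 list and a peak of the P8 list and no peak of the P2 list, after peaks of the 3 lists sharing at least 1 bp had been merged. This gave 4039 regions of 64911 (6.22%), which were 8.49% of the regions called at P5 and 9.22% of those called at P8. Of the 8190 regions called at P5 and not at P2, 49.3% were kept at P8, and of the 8850 called at P8 and not at P2, 45.6% had been called at P5. These counts follow from the rule that chose the regions and are given as a description. The chosen regions are called gained regions below, which says only that no P2 peak was called there.

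The data are ATAC-seq peak lists from whole cochleae of CD1 mice, an outbred stock, with both cochleae of an animal combined. The groups were 3 animals of P2, another 3 of P5, and 4 of P8. The labels name no treatment or transgene and no sort of a cell type, so every kind of cell in the dissected tissue could contribute nuclei. The values used here come as 1 deposited list per age, which gives no spread between animals and allows no test between ages. Fewer cells of a type and less open chromatin per cell cannot be told apart in such tissue. Of 167 marker genes in 9 lists for cochlear cell types, 155 had a region in the P2 list, 151 in the P5 list and 150 in the P8 list. Of 135 markers of other tissues that a dissection can hold, such as bone, muscle and blood, 107, 105 and 98 had one.

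Accessible regions away from gene starts are often enhancers, short stretches where transcription factors bind and act on a gene that may lie far away. During the first postnatal week the mouse cochlea does not yet hear: hair cells build their transduction apparatus, the stria vascularis matures towards making the endocochlear potential, the bony capsule ossifies, and thyroid hormone times several of these steps. Regions opening in this window can belong to any of these tissues.

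Few gained regions covered a gene's start. RefSeq start sites of build GRCm38.p6, the same assembly as mm10, were used for all chromosomes but 18, and 106 of 3882 gained regions (2.73%, Wilson 95% interval 2.26 to 3.29, counting error only) covered one. The share was 1.80% of regions called at P5 alone, 3.21% of those called at P8 alone and 16.0% of all regions. They belonged to 113 genes, 68 of them protein-coding. For 6 protein-coding genes the 250 bases before a RefSeq start site are shown 5′ to 3′ on the gene's strand, because that site was in a gained region. The sites of Stat5b and Lpar1 are inner ones, with the nearest gene end 36418 and 15437 bp from the region's middle. Capitals mark any of 12 short words listed below.
Atoh1: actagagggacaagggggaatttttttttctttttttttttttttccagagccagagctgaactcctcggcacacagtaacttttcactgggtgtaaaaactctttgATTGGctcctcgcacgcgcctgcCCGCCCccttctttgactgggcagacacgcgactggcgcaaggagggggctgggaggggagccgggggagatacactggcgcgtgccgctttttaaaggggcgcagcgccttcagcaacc
Thrsp: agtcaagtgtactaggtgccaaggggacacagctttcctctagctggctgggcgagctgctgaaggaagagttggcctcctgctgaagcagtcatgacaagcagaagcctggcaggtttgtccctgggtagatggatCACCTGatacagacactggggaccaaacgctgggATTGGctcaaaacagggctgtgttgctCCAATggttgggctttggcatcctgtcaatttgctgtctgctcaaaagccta
Stat5b: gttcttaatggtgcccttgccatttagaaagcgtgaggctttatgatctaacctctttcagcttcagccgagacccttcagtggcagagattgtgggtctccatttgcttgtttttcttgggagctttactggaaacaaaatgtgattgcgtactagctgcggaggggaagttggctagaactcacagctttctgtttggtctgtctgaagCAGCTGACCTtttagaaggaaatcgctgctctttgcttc
Lpar1: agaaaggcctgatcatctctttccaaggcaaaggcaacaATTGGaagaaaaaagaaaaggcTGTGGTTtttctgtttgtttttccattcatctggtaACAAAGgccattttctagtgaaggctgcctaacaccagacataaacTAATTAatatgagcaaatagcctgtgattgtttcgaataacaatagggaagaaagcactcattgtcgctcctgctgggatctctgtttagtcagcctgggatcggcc
Lamb2: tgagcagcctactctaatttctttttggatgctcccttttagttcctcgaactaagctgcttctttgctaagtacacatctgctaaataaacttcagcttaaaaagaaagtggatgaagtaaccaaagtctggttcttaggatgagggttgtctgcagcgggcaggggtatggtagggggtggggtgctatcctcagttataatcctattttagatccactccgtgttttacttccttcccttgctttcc
Matn4: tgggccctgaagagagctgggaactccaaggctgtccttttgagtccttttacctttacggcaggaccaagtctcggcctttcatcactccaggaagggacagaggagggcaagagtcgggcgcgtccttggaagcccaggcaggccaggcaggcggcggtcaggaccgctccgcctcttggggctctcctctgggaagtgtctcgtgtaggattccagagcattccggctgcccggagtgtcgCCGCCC
The Atoh1 stretch is chr6:64728875-64729124 on the plus strand, and all 250 bases lay in the gained region. Thrsp (chr7:97417551-97417800, minus strand), Stat5b (chr11:100822571-100822820, minus), Lpar1 (chr4:58499404-58499653, minus), Lamb2 (chr9:108479612-108479861, plus) and Matn4 (chr2:164404819-164405068, minus) were also covered over all 250 bases. Both strands were searched. The word for AP-1 factors was TGACTCA, the word for RUNX factors was AACCACA, and the word for TEAD factors was GGAATGT. SOX factors were given the word ACAAAG, the zinc finger factors named for their site were given the word AGATAA, and nuclear receptors were given the word AGGTCA. The first E-box searched for was CAGCTG, while the second E-box searched for was CAGGTG. Homeodomain proteins were given the word TAATTA, KLF and SP factors were given the word GGGCGG, and the NF-Y complex was given the word CCAAT. The last word, for the core promoter box of that name, was TATAAA. In Stat5b an E-box and a nuclear receptor word overlap and appear as 1 run of capitals.

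Atoh1 encodes the transcription factor that starts hair cell differentiation, and its start stood at percentile 5.56 of the P5 list and 33.4 of the P8 list. A percentile is a peak's place within its own list by the authors' ranking value, with 100 at the top, and places in lists of different lengths do not measure a change. Atoh1 had only 1 other region, called at P2 alone. The start of Thrsp, a gene responsive to thyroid hormone, stood at 13.1 and 26.5, and that of Matn4, a cartilage matrix gene, at 8.66 and 13.4. The ranking values at Matn4, 17.2 at P5 and 15.9 at P8, were both below 19.5, the lowest of the P2 list. Those at Atoh1 (16.2) and Thrsp (18.7) were below it at P5 only. The inner start of Lpar1, a lysophosphatidic acid receptor gene, was at 29.7 and 34.2. That of Stat5b, a transcription factor of cytokine signalling, was at 22.0 and 36.8. Lamb2, a laminin chain of basement membranes, was the highest of the 6, at 73.8 and 76.7. The nearest P2 peak to its region lay 398 bp away, against 5080 bp for Atoh1, 6936 bp for Thrsp, 7400 bp for Stat5b, 1310 bp for Matn4 and 46823 bp for Lpar1.

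The starts covered by gained regions were poorer in CpG dinucleotides than those called at all ages. Over the 250 bases before the start, 25 of 113 windows (22.1%, 15.5 to 30.6) had an observed to expected CpG ratio of at least 0.6, against 72.7% (71.8 to 73.6) of 9687 starts in regions called at all 3 ages and 34.0% of 32851 windows in all. Starts in regions called at P5 alone (22.7%, 17 of 75) and at P8 alone (25.7%, 39 of 152) had shares within the interval of the gained regions. The share was 44.4% of the 27 windows in gained regions touching the wider interval of a P2 peak, explained below, and 15.1% of the other 86. The median GC content was 50.8% in gained regions, 61.2% at starts called at all ages and 52.4% over all windows. The AP-1 word occurred in 12 of 113 windows (10.6%, 6.18 to 17.6), against 4.46% of all windows, and the RUNX word in 10 (8.85%, 4.88 to 15.5), against 4.40%. The KLF/SP word occurred in 26 (23.0%, 16.2 to 31.6), against 32.7%. For the other 9 words the interval held the share over all windows. At starts called at all 3 ages, counted once per gene, the KLF/SP word occurred in 63.8%, the AP-1 word in 2.48% and the RUNX word in 2.78%. The intervals of gained regions also lay above the share at those starts for the SOX, nuclear receptor, homeodomain, AGATAA and TATA words. A word match is a description of letters and not a binding site, and the part of base composition in these shares was not tested.

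A few gained regions lay at microRNA genes. Of 1005 hairpins in the RefSeq table, 19 had a gained region within 5 kb. Of the 3882 gained regions on chromosomes in that table, 18 (0.464%, 0.294 to 0.732) lay that near a hairpin, against 0.375% of regions called at P5 alone, 0.625% of those called at P8 alone and 0.958% of all regions. Mature sequences from 4 hairpins are shown because their families are widely studied in skeletal, muscle and sensory tissue, with the seed (bases 2 to 8) in capitals.
mmu-miR-26a-5p: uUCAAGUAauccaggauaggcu
mmu-miR-199a-5p: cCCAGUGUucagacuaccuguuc
mmu-miR-199a-3p: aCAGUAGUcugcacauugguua
mmu-miR-214-3p: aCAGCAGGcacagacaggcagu
mmu-miR-125b-5p: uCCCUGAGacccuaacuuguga
No pair of these shares a seed. The Mir26a-1 hairpin (chromosome 9, 119031796 to 119031885) lay wholly inside a gained region at 119031779 to 119032287, which stood at percentile 5.29 at P5 and 28.3 at P8. On chromosome 1, the region at 162218552 to 162219181 lay 629 bp from Mir199a-2 and 4187 bp from Mir214, at percentiles 42.8 and 51.0. The region at 41583976 to 41584474 on chromosome 9 lay 1974 bp from Mir125b-1, at 27.0 and 14.7. None of these 3 regions touched the wider interval of a P2 peak, a measure explained next, and their nearest P2 peaks were 1703, 765 and 2801 bp away.

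The strongest gained regions lay beside P2 peaks. Every deposited peak has the same width around a centre, and each line of the lists also keeps the wider interval of that peak in the 2 inputs from which the list was made. Of the 4039 gained regions, 106 (2.62%) touched the wider interval of a P2 peak although no centred P2 peak overlapped them. Regions called at P5 alone did so in 2.31% (96 of 4151), and regions called at P8 alone in 3.47% (167 of 4811). Among the 16 gained regions with a mean percentile over 80 across P5 and P8, all 16 did. The share was 21.6% (12.5 to 34.6) of the 51 between 70 and 80, 10.5% of the 143 between 60 and 70, and 1.08% (0.632 to 1.84) of the 1204 up to 20. Of the 10 highest, the first (94.6 at P5 and 97.4 at P8) had no protein-coding gene within 100 kb, and the others were nearest to Eif1, Hmgn2, 8030462N17Rik, Mertk, Adck5, Hdlbp, Bhlhe40, A4galt and Mthfd1l. At Eif1, a translation initiation factor gene, the region stood at 92.9 and 94.9, and a P2 peak lay 55 bp from it. At Bhlhe40, a clock-linked repressor gene, the values were 82.4 and 86.3 and the distance was 489 bp. Regions of this kind lay within 1 kb of a gene end in 53 of 106 cases (50.0%), against 8.34% of the other 3933.

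**Figure D1:**
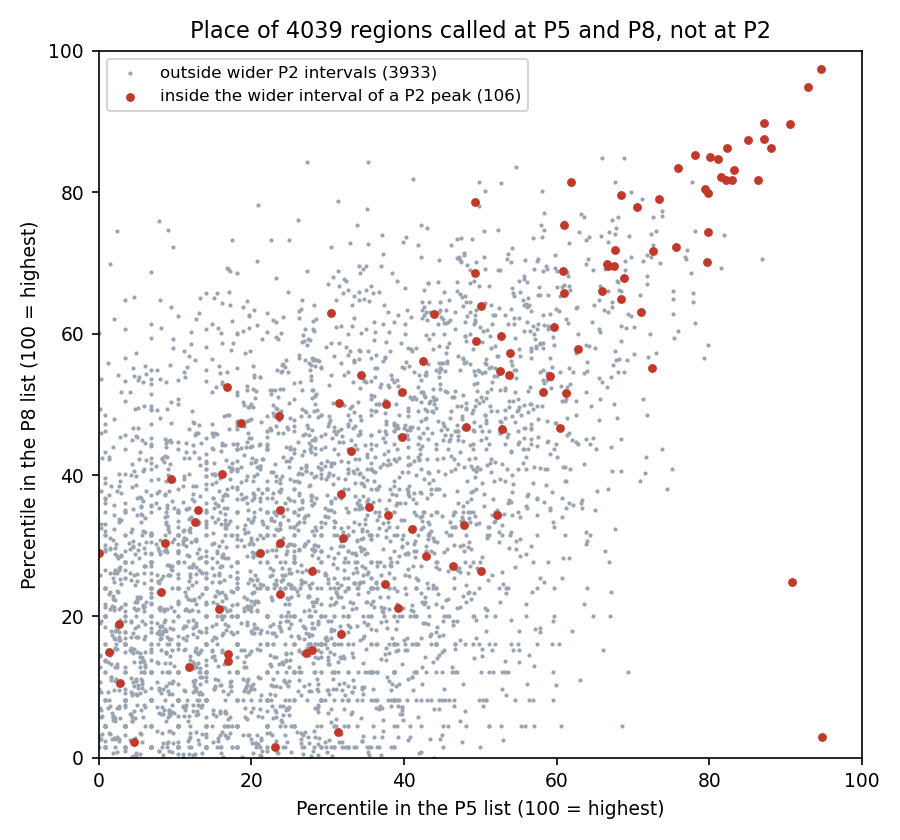
Percentile of each gained region in the P5 list (x axis) and in the P8 list (y axis), 1 point per region, with 100 at the top of a list. Red points (106) touch the wider interval of a P2 peak, and the 3933 grey points do not. All 16 regions with a mean percentile over 80 are red, but most red points lie lower (median mean percentile 53.6).

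Most gained regions were of low to middle rank. The median percentile of all 4039 was 27.5 at P5 (quartiles 14.1 and 42.3) and 29.9 at P8 (16.1 and 45.9). They stood above regions called at P5 alone (median 14.1) and at P8 alone (16.1), and below regions called at all 3 ages (65.0 at P5 and 61.6 at P8). Regions called at P2 and P5 but not P8 had a median of 22.4 at P5. Those called at P2 and P8 but not P5 had a median of 17.8 at P8. The rule asks for a repeated call, and its part in these places was not tested. Both percentiles were over 50 in 326 gained regions (8.07%), 49 of which touched a wider P2 interval. In 4027 regions each age had 1 peak, and the P5 and P8 centres lay a median of 10 bp apart. The weakest peak called differed between ages, at 19.5 on the authors' −log10 p-value scale in the P2 list, 13.5 at P5 and 11.4 at P8. In 694 gained regions (17.2%) both values were below 19.5, and the part of that difference in the absence of a P2 call was not tested. At the edge of the rule, 25 gained regions lay less than 50 bp from a P2 peak, and 30 regions called at all ages were joined to their P2 peak by less than 50 bp.

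The highest gained region that touched no wider P2 interval lay inside Lama2, the gene of a laminin chain of muscle and nerve basement membranes. It is at chromosome 10, 27322607 to 27323110, with percentiles of 77.8 at P5 and 81.4 at P8, and the nearest P2 peak was 64.3 kb away. Next came a region on chromosome 5 at 85751497 to 85751995 with no coding gene nearby by the 100 kb rule (86.9 and 70.6), and one inside Fat1, an atypical cadherin gene, on chromosome 8 at 44979992 to 44980491 (81.9 and 73.9). Of the 15 highest of these regions, 6 had no protein-coding gene within 100 kb. One on chromosome 15 at 13754745 to 13755302 lay 581 kb from any P2 peak, at 79.8 and 74.3. A region inside Ceacam16, which encodes a protein of the tectorial membrane, was also among them. It lies on chromosome 7 at 19864118 to 19864616, at percentile 65.9 in the P5 list and 84.8 in the P8 list, 11.6 kb from a P2 peak. Others lay inside Vangl1, a planar cell polarity gene, at 67.6 and 81.5, and inside Mogat1, at 72.6 and 76.5. Apart from Mogat1, the genes of this paragraph were picked once values had been looked at.

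Gained regions lay far from genes more often than regions called throughout. Within 1 kb of a gene end lay 381 (9.43%, 8.57 to 10.4), against 37.4% (36.8 to 37.9) of regions called at all 3 ages and 25.5% of all regions. No protein-coding gene within 100 kb was found for 616 (15.3%, 14.2 to 16.4), against 5.90% (5.65 to 6.16) and 8.74%. Inside protein-coding genes lay 50.6%, against 52.6% of regions called at all ages. Regions called at P5 alone lay near gene ends in 8.74% and without a gene in 16.7%, and regions called at P8 alone had no gene in 11.4%. The gap to regions called at all ages was also present at like P8 percentile. Among regions with a P8 percentile of 20 to 40, 7.99% (6.68 to 9.54) of gained regions and 18.2% (17.2 to 19.3) of regions called at all ages lay near a gene end, and 15.8% and 8.47% (7.76 to 9.25) had no gene within 100 kb. Regions called at P8 alone had 10.7% (9.22 to 12.5) and 11.9% (10.3 to 13.7) in that bin. Between 40 and 60 they had 12.5% and 15.6%, next to 9.79% and 16.8% of gained regions. Between 60 and 80 the shares near a gene end were 13.3% (10.2 to 17.1) and 32.9% (31.9 to 33.9) for gained and all-age regions. For regions called at P8 alone that share was 24.0% (15.8 to 34.8). Intervals of gained regions and regions called at all ages did not overlap for either measure in any of the 5 bins of 20 percentiles. Neighbouring regions are not independent, so these intervals are too narrow.

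**Figure D2:**
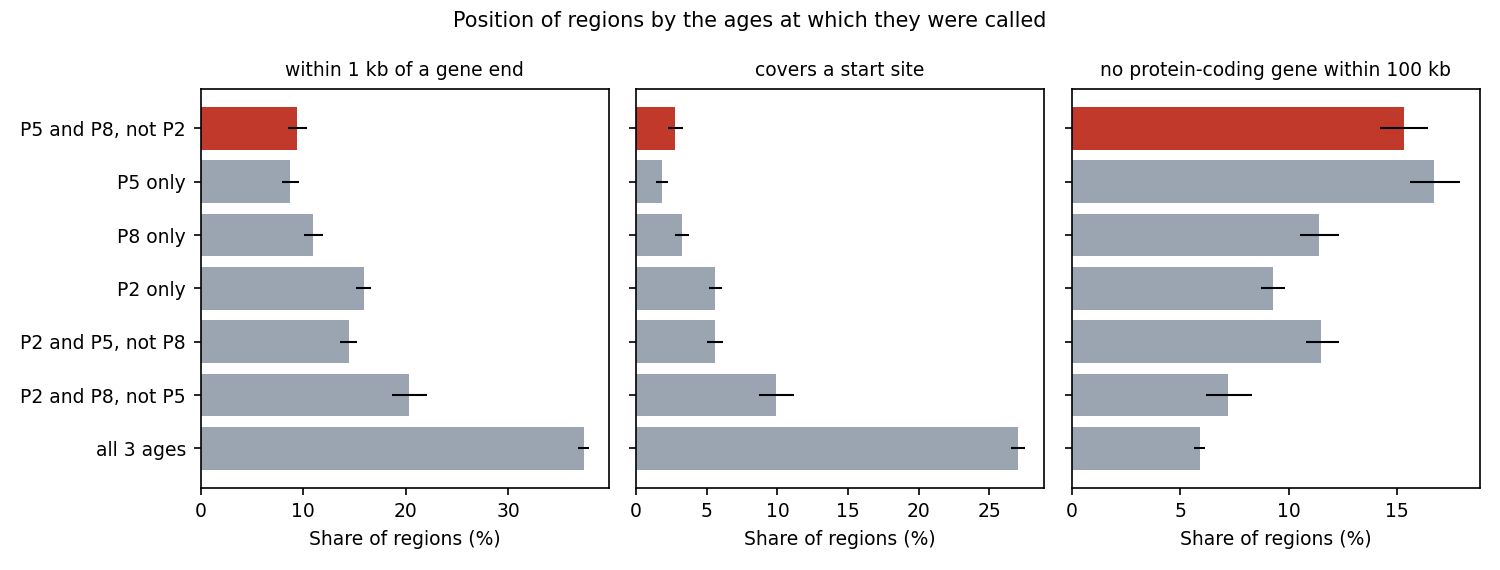
Share of regions (x axis, percent, from 0) for 7 classes of region by the ages at which they were called (rows), for 3 kinds of position, with Wilson 95% intervals as bars. Gained regions (red) are near a gene end in 9.43% and without a protein-coding gene within 100 kb in 15.3%, next to 37.4% and 5.90% of regions called at all 3 ages.

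Along the genome, gained regions were spread over every chromosome but Y, where 12 regions were called in all. Their share of a chromosome's regions ran from 4.41% on X (45 of 1020) and 4.90% on chromosome 11 to 7.34% on chromosome 18 and 7.39% on chromosome 1 (319 of 4317). Most stood alone. Another gained region lay within 50 kb for 1012 of them (25.1%, 23.7 to 26.4), which formed 387 pairs, 54 groups of 3, 15 of 4 and 3 larger ones. The same measure gave 22.3% for the 4151 regions called at P5 alone and 34.0% for the 4811 called at P8 alone, classes that differ in size. The nearest P2 peak was a median of 10902 bp away (quartiles 4201 and 26350).

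The longest run lay at Ntn4, which encodes netrin 4, a secreted protein of basement membranes that binds laminin. Over 97.8 kb on chromosome 10, from 93715710 to 93813481, 6 gained regions followed each other with no other region between them. The first 3 lay inside Ntn4, at percentiles of 33.4, 24.8 and 8.64 in the P5 list and 56.2, 22.4 and 31.5 in the P8 list. The fourth, past the gene's end at 93760921 to 93761425, was the highest of the 6 in both lists, at 66.6 in the P8 list. The last 2 were nearer to Usp44, a deubiquitinase gene, at 55.0 and 50.8 and at 31.9 and 1.47. Ntn4 had 8 regions, of which 4 were in the P2 list, all 8 in the P5 list and 7 in the P8 list. Runs of 3 or more numbered 18 among gained regions, against 31 among regions called at P5 alone and 49 among those called at P8 alone.

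**Figure D3:**
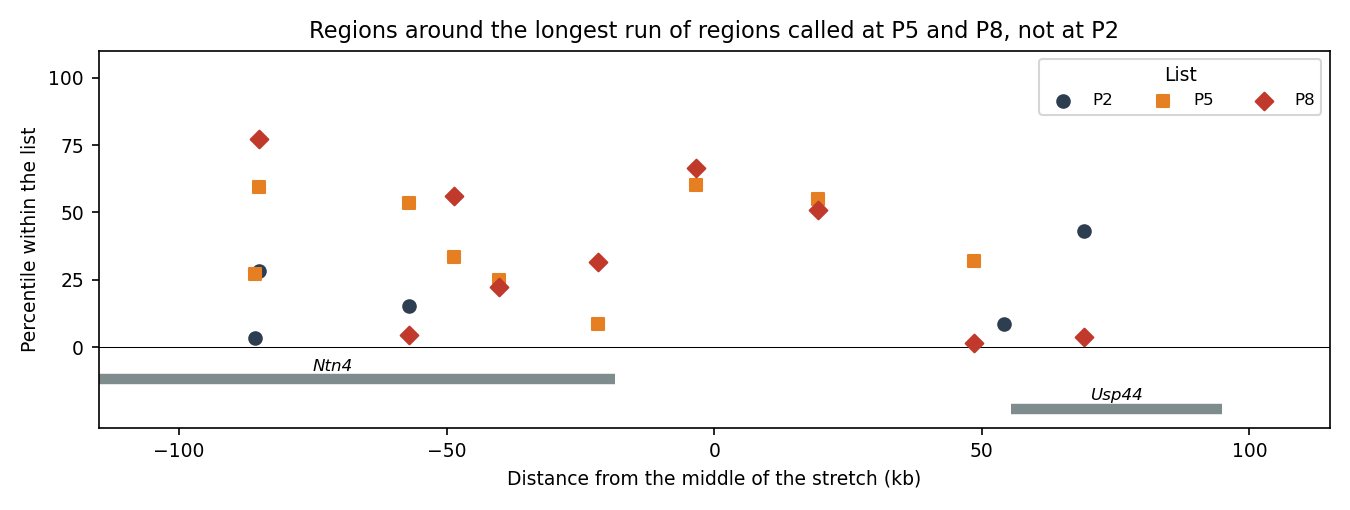
Regions on and around the stretch from Ntn4 to Usp44, with distance from the middle of the stretch on the x axis (kb) and percentile within a list on the y axis, coloured by list, and the genes drawn as grey bars below. From −48.6 to 48.6 kb only P5 and P8 points appear, for 6 regions, and P2 points stand on either side.

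Next came 2 stretches with 5 gained regions each. On chromosome 13, 5 gained regions from 31658951 to 31761478 lay between Foxf2 and Foxc1, forkhead genes of mesenchyme. Their distances were 27800 to 73002 bp for those nearest to Foxf2, and 45418 and 59065 bp for those nearest to Foxc1. The 2 nearest to Foxc1 stood at 58.4 and 37.9 at P5 and at 51.6 and 43.4 at P8, and the 3 nearest to Foxf2 between 1.32 and 17.3 at P5 and between 8.18 and 19.0 at P8. Of these 3, the regions starting at 31665260 and 31704157 had ranking values of 16.6 and 14.3 at P5. Theirs at P8 were 17.7 and 14.6, all below 19.5, the lowest of the P2 list. The remaining region had 20.1 at P5 and 14.8 at P8. A P2 peak lay 717 bp from the region starting at 31704157. On chromosome 11, from 69040801 to 69124562, 5 gained regions lay among 18 regions of a gene-dense stretch holding Aurkb, Borcs6, Per1 and Hes7. There 10 regions were called at all ages and 2 of the 5 touched a wider P2 interval. The gained region beside Per1, a core clock gene, stood at 60.7 and 50.5. Stretches with 4 gained regions numbered 15, and the 2 holding the highest single regions by mean percentile were at Plekhg1 and Mthfd1l on chromosome 10 and at Mogat1 and Acsl3 on chromosome 1, where 4 of 5 regions in 64.4 kb were gained ones.

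Gained regions were thinly spread over genes. Each was given to its nearest protein-coding gene within 100 kb, which 3423 had, out of 59240 regions with such a gene (5.78%). These fell on 2633 of 15796 genes (16.7%), with 1 each for 2059 genes, 2 for 412, 3 for 124 and more for 38. Genes with a gained region were longer, with a median of 62.1 kb against 24.4 kb for all genes with a region. Across the 15796 genes, the number of gained regions had a Spearman rho of 0.307 with the number of other regions, a description over genes that share 3 lists.

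Slc9a9, a sodium-proton exchanger gene, and Thsd4, a gene of a microfibril-associated matrix protein, had 7 gained regions each. Those of Slc9a9 made up 7 of its 20 regions and stood between 0.00944 and 41.2 at P5 and between 1.47 and 39.9 at P8, 1 of them touching a wider P2 interval. All 7 of Thsd4 lay inside the gene, among 38 regions, at 11.5 to 32.7 and 10.1 to 41.1. Adamtsl1, of the same wider family of matrix proteins, had 6 of 27, all inside it, and 4 of them followed each other over 49.0 kb with no other region between. Sipa1l1, a gene of a synaptic signalling protein, had 6 of 38. With 5 each came Macrod2, Trpm3, a cation channel gene, Auts2, Rad51b, a DNA repair gene, and 2 transcription factor genes. Ebf1 had 5 of 23, the highest at 54.0 and 63.5, which lay 79645 bp outside the gene. With only genes within 20 kb counted, Ebf1 and Auts2 had 3 each. The regions of Ebf1 numbered 12 in the P2 list, 19 in the P5 list and 15 in the P8 list. Rora, a nuclear receptor gene, had 5 of 33, the highest at P8 at 62.0, and its regions numbered 18, 25 and 19 in the same order. Genes were picked here by regions called at P5 and not at P2, which bears on these counts.

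With 4 gained regions came 28 genes, of which the 5 whose regions reached the highest mean percentile complete the 15. Klf13, a transcription factor gene of 52.6 kb, had 4 of 15 and reached 80.2 in the P8 list. Ntn4 had 4 of 8, Cacna2d3, a calcium channel subunit gene, 4 of 25, Camta1 4 of 36 and Arhgap26 4 of 41. These genes are long, with a median of 735 kb, and 64 of their 76 gained regions lay inside them. When regions were given to the nearest gene end instead, Arhgap26 had 0, Trpm3 and Camta1 1, and Thsd4, Sipa1l1 and Adamtsl1 3 each.

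**Figure D4:**
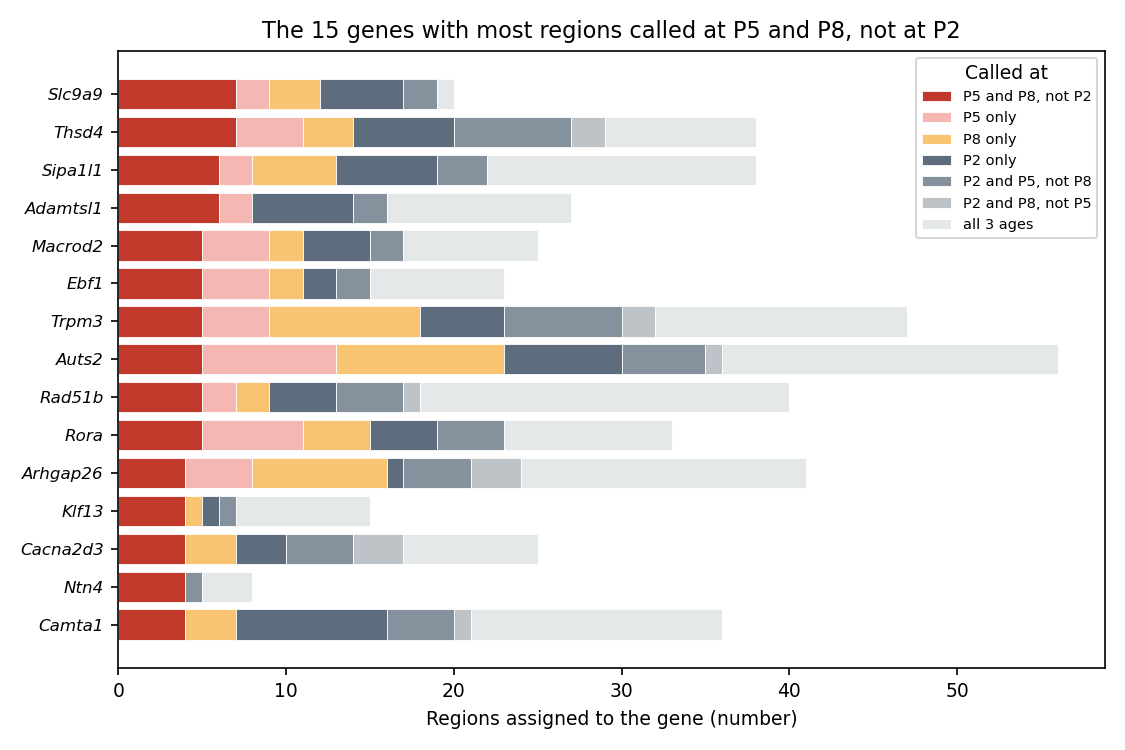
Number of regions (x axis) given to each of the 15 genes with most gained regions (rows, ties at 4 ordered by highest mean percentile), split by the ages at which they were called, with gained regions in red. Red makes up 7 of 20 regions for Slc9a9 and 4 of 8 for Ntn4, but 5 of 56 for Auts2.

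Gene lists for cochlear cell types, other tissues and pathways held gained regions at about the share of all genes. In each of the 27 lists the Wilson interval of the share held the 5.78% found over all regions with a gene, 15 lists lying above it and 12 below. For the 9 cochlear marker lists together the share was 6.10% (54 of 885), and for the 8 lists of other tissues 6.02% (30 of 498). These shares describe where the regions lie, and the lists were chosen with earlier results of these data known.

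In the sensory epithelium, the supporting cell list had 15 gained regions of 180 (8.33%, 5.11 to 13.3) at 11 of 26 genes. With only genes within 20 kb counted it had 4 of 120 (3.33%), below the 5.42% over all regions with a gene so near. Slc1a3, the gene of a glutamate transporter of glia-like supporting cells, had 3, at 61.0, 34.1 and 12.4 at P5 and 75.3, 35.2 and 18.3 at P8. The first of these lay 12 bp from a P2 peak and touched its wider interval. Hes1 and Hey2, effectors of Notch signalling, had 2 each. The higher of those of Hey2 stood at 32.7 at P5 and 31.5 at P8, and those of Hes1 at 18.1 and 19.6 at P5 and at 27.7 and 3.17 at P8. The Notch pathway list as a whole had 14 of 200 (7.00%). Hair cell genes had 6 of 110 (5.45%), and 8 of 97 (8.25%) at equal list length, a setting with the lists cut to the same number of peaks in which the share over all regions was 7.51%. Among them Tmc1, of the transduction channel, had 2 (14.1 and 56.6 at P5, 17.8 and 46.6 at P8), and Strc and Atoh1 had 1 each. The greater epithelial ridge and tectorial membrane list had 3 of 78 (3.85%), at Otogl, Ccdc80 and Ceacam16.

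In the lateral wall, genes of intermediate cells and melanocytes of the stria vascularis had 7 of 72 (9.72%, 4.79 to 18.7) and marginal cell genes 8 of 126 (6.35%). With every gene within 50 kb counted, which gave 4.55% over all, marginal cell genes had 7 of 198 (3.54%). Mitf, the master transcription factor gene of melanocytes, had 2, at 14.1 and 6.84 at P5 and at 25.4 and 23.3 at P8. Gsta4 had 2, at 60.6 and 27.9 and at 52.6 and 35.8, and Tyrp1, Slc24a5, both pigment genes, and Met had 1 each. Lmx1a had 2 of the marginal cell list. Fibrocyte and otic mesenchyme genes had 6 (5.41% of their regions), and 9.90% at equal list length.

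Gjb2, which encodes connexin 26 and is the gene of the study's title, had no gained region among its 3 regions. Its neighbour Gjb6, which encodes connexin 30, had 1 of 8, on chromosome 14 at 57161757 to 57162299, at 19.5 in the P5 list and 44.6 in the P8 list. It lay 28417 bp from Gjb6 and 57326 bp from Gjb2. A region called at P2 alone, at percentile 40.8 of that list, lay 137 bp beside it. The gap junction list had 3 of 41 (7.32%), the other 2 at Gja5, but 1 of 27 (3.70%) within 20 kb and 3 of 89 (3.37%) with every gene within 50 kb.

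The place of neural lists relative to all genes varied with the setting. Spiral ganglion neuron genes had 9 of 140 (6.43%), 1 each at 9 genes. At equal list length they had 15 of 122 (12.3%), and the interval's lower bound lay just above the 7.51% over all. Synapse genes had 12 of 222 (5.41%), with 18 of 197 (9.14%) at equal list length and 4 of 138 (2.90%) by nearest gene end. They had 3 each at Syn3, a synapsin gene, and Syt13, of the synaptotagmin family. Those of Syt13 all lay outside the gene, at distances of 31807 to 90511 bp. The highest of them, at 52.6 and 54.7, lay 255 bp from a P2 peak and touched its wider interval. Schwann cell and satellite glia genes had 2 of 81 (2.47%, 0.680 to 8.56), at Ngfr and Ncmap, and 4 of 71 (5.63%) at equal list length. The thyroid hormone response list had 11 of 146 (7.53%). Thrb, the gene of a thyroid hormone receptor needed for hearing, had 4, all inside it, at 52.2, 15.2, 47.8 and 27.4 at P5 and 35.1, 40.0, 56.4 and 46.7 at P8. Ncoa1, a nuclear receptor coactivator gene, had 2. The hearing loss list had 19 of 282 (6.74%), among them 3 at Eya4 and 2 each at Serpinb6a, Tmc1 and Diaph3.

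Among other tissues, osteoblast and bone genes had 10 of 106 (9.43%, 5.21 to 16.5), and 16 of 102 (15.7%) at equal list length, where the interval lay above the share over all. With only genes within 20 kb counted they had 6 of 79 (7.59%), and the interval held the 5.42% over all. Ibsp, of bone sialoprotein, had 2, at 64.3 and 42.6 at P5 and at 73.7 and 66.1 at P8, and Tnfrsf11b, of the osteoclast inhibitor osteoprotegerin, had 2, at 59.3 and 24.4 and at 53.6 and 25.8. The nearest P2 peaks to the Ibsp regions were 21719 and 31002 bp away, and those to the Tnfrsf11b regions 95850 and 19006 bp. Dmp1, Phex, Runx2, Alpl, Col1a2 and Smpd3 had 1 each. Of the list's 20 genes with a region, 8 had a gained one and the others had none. Chondrocyte genes had 9 of 126 (7.14%, and 11.2% at equal list length), 2 each at Sox5, Sox6 and Sox9, the transcription factor genes of cartilage. Macrophage and microglia genes had 4 of 40 (10.0%, 3.96 to 23.1), 2 of them at Mertk, where 1 touched a wider P2 interval. That list had 6 of 36 (16.7%) at equal list length, above the share over all, but 4 of 112 (3.57%) with every gene within 50 kb counted, below the 4.55% over all. Endothelial and pericyte genes had 3 of 102, cell cycle genes 2 of 80 (4 of 71 at equal list length), and Hox genes 0 of 21, which allows a share of up to 15.5%.

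**Figure D5:**
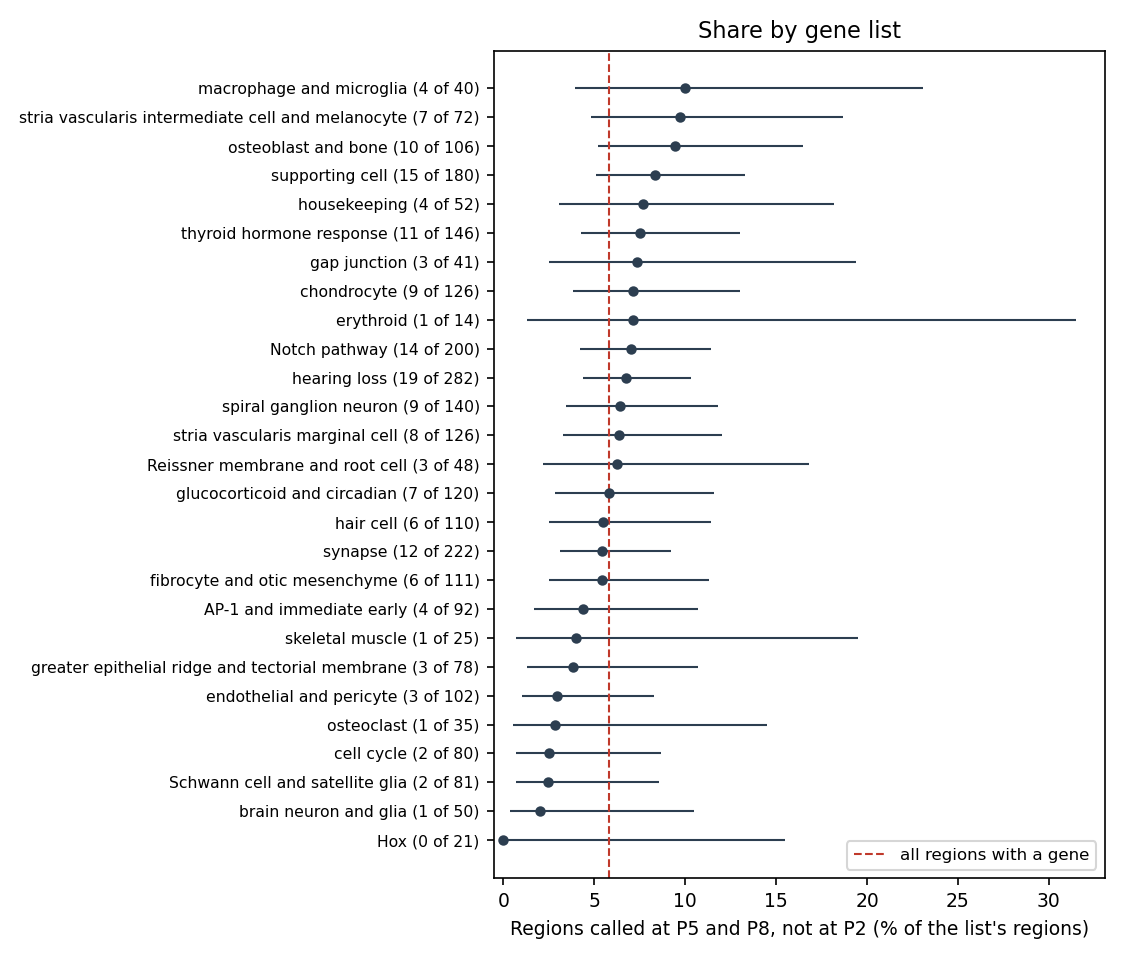
Gained regions as a percent of the regions given to the genes of a list (x axis), for 27 lists (rows, with counts), with Wilson 95% intervals. The dashed line marks the 5.78% over all regions with a gene, and each interval crosses it.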

How the data were processed

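ATAC-seq peaks of whole cochleae at P2, P5 and P8 were taken from 3 deposited lists, 1 per age. The submitters' processing notes name the tools MACS2 2.1.0, Subread 1.4.6-p3 and Trimmomatic 0.33, and the build mm10, without settings. The lists have 20 columns as the program for the irreproducible discovery rate (IDR) writes them, keeping peaks that rank alike in 2 inputs. The sources used here do not name the animals behind the inputs or how reads were shifted and filtered. The ranking value deposited by the authors follows the −log10 p-value scale, and the deposited IDR score corresponds to an IDR of at most 0.05. The depth of each library is unknown from these lists, and a deeper library can give more peaks.

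From these, regions, percentiles, distances and counts were computed with Python 3.11.15, pandas 2.3.3 and NumPy 2.4.6, after checks on simulated peaks. A wider interval spans the outer edges of a peak in both inputs. Peak starts, taken to count from 0, were raised by 1 for printing, an assumption of 1 bp. Genes and start sites came from RefSeq tables of GRCm38.p6 (21883 protein-coding genes), and 565 of 568 list entries matched. No genome was used, so words were searched only before start sites, and the planned search of whole regions was not run. Intervals are Wilson 95% intervals. With 1 list per age, no p-value was computed.

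Members and lists were chosen with earlier results of these data known. Named genes are the 15 with most gained regions, those of the 10 highest regions and of the 5 fullest stretches (ties in both broken by the highest mean percentile), up to 3 per list with at least 2 gained regions, and Gjb2 and Gjb6. Other genes, the 12 words and the printed sequences were chosen after values were seen. Some results are not reported here.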

Additional observations from a re-analysis of the deposited data

How the results depend on the processing

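The number of gained regions ranged from 3684 to 4719 when peaks were merged by 250 bp of overlap or by centres within 100 bp, when lists were cut to the 43878 highest peaks, or when no P2 peak was allowed within 500 bp or 1 kb. It fell to 2033 with an IDR of at most 0.01 at both ages and to 326 with only the upper 50% of the P5 and P8 lists. An alternative chosen after seeing the data, which asked that both ranking values reach the lowest of the P2 list, left 1842. Another, which left out regions touching a wider P2 interval, left 3933 and moved the share near a gene end to 8.34%. That share was 5.50% within 500 bp of a gene end and 17.4% within 2.5 kb. The share with a gained neighbour was 5.32% within 10 kb, 11.3% within 20 kb and 29.2% at equal list length. The share of regions with a gene that were gained was 7.51% at equal list length, 5.42% within 20 kb and 4.55% when every gene within 50 kb was counted, and genes with a gained region then numbered 4912. By nearest gene end, 104 genes had 3 or more gained regions, against 162. At equal list length the intervals of 4 lists no longer held the share over all regions: bone (16 of 102), Reissner membrane and root cell (7 of 42), spiral ganglion neuron (15 of 122) and macrophage (6 of 36), all above it. By nearest gene end this held for bone (10 of 98), and within 50 kb for bone (16 of 176, above) and Hox (0 of 131, below). The lower bounds for spiral ganglion neuron at equal list length and for bone by nearest gene end lay only just above the share over all. With nearest genes within 20 kb, or without regions touching a wider P2 interval, all 27 intervals held the share over all. Median percentiles were 27.1 and 29.5 by IDR. The cause of these shifts was not tested. No paired analysis was possible because the values used here come as 1 list per age, and for the same reason no animal could be left out. The search for words in whole regions and its alternatives were not run.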

Other observations

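The genes named here were picked after their values were seen, and no shared theme was tested. Beside the laminin genes Lama2 and Lamb2, Lamc1, of the laminin gamma 1 chain, had 3 gained regions within 6.11 kb on chromosome 1, from 153317490 to 153323603, with no other region between them. They stood at 6.07, 24.2 and 15.9 in the P5 list and at 33.9, 42.6 and 39.6 in the P8 list. It was the shortest of the 18 runs of 3 or more. Lamc1 had 14 regions, with 7 called in the P2 list, 10 in the P5 list and 7 in the P8 list.

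Oca2, a gene of melanosome pH and pigmentation, had 2 regions in all, and both were gained ones. They stood at 48.8 and 0.821 at P5 and at 36.6 and 48.5 at P8, and lay 369 kb and 490 kb from the nearest P2 peak. It was 1 of 5 genes with 2 or more regions that were all gained, the others being Pabpc2, Cd200r3, 4931417E11Rik and Mettl11b. Kitl, whose product is the ligand of the receptor Kit and is needed by melanocytes, had 3 gained regions among 5, at 46.2, 32.7 and 48.6 in the P5 list and 42.7, 32.7 and 55.7 in the P8 list. Of its regions, 1 was called at P2, 4 were at P5 and all 5 at P8. Other pigment cell genes had no gained region: Kit had 0 of 8, Trpm1 0 of 7, Dct 0 of 3 and Pmel 0 of 2.

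Some gained regions held very different places in the P5 and P8 lists. A region inside Kpna4 on chromosome 3, at 69125906 to 69126407, stood at 94.8 at P5 and 2.89 at P8 and touched a wider P2 interval. One inside Sh2d6 on chromosome 6, at 72528273 to 72528774, stood at 2.39 and 74.5 and touched none.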
